A study of Mus musculus with 13 samples.

Results

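The levels of 47 genes of DNA replication and cell division were followed through 13 RNA-seq libraries of mouse small intestine, among 24054 counted genes. The genes were taken from a list of symbols: 20 act in S phase (helicase loading, the replication clamp, nucleosome assembly, nucleotide supply, E2F factors and cyclin E) and 27 in mitosis (cyclins and Cdk1, kinases, the chromosome passenger complex, the spindle checkpoint, kinetochores, the spindle and chromosome condensation). The study asked how loss of Apc acts in different intestinal cells and settings. Apc is the scaffold on which beta-catenin is marked for destruction, and cells without it keep Wnt target genes active. All 47 genes were found in every table, and all 47 passed the filter on low counts in each fit.

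Sec-Cre organoids (2 libraries, Atoh1CreERT2;Apcfl/fl;Rosa26tdTomato) lost Apc through a tamoxifen-inducible Cre under Atoh1, the factor that commits crypt cells to secretory fates. ISC-Cre organoids (2 libraries, Lgr5eGFP-CreERT2;Apcfl/fl;Rosa26tdTomato) lost it under Lgr5, the receptor that marks intestinal stem cells (ISCs), and 2 organoid libraries were labelled WT with no further genotype. Organoids are self-renewing epithelial cultures, here collected whole, with a time point of 10 days, which by the labels ended at plating and by the design text began there. Their region is uncertain, since the treatment text names ileal crypts for them and the extraction text names the duodenum for every sample. Duodenal ISC-Cre ISCs (3 libraries, Lgr5eGFP-CreERT2;Apcfl/fl;Rosa26tdTomato) were isolated by flow cytometry, on a marker not given in the sources used here, 14 days after tamoxifen. Ileal Sec-Cre ISCs (2 libraries, Atoh1CreERT2;Apcfl/fl;Lgr5DTR-GFP;Rosa26tdTomato) and ileal WT ISCs (2 libraries, Apcfl/fl;Lgr5DTR-GFP;Rosa26tdTomato, with no Cre and so with floxed but uncut Apc) were isolated at 21 days. All mice were adult, and every group, WT included, received 2 doses of 1 mg tamoxifen. The share of cells in which Apc had recombined was not measured in these files.

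Cells copy their DNA once per division. Cdc6 and Cdt1 load the ring of Mcm2 to Mcm7 onto origins, GINS activates it as a helicase, Pcna clamps the polymerases to DNA and the Chaf1 subunits rebuild nucleosomes behind the fork. E2F factors switch these genes on at the entry into S phase. Mitotic genes peak later, through the DREAM and MuvB complexes, which reach promoters through the cell cycle homology region (CHR) and act beside NF-Y. In the crypt, ISCs and the transit-amplifying cells above them divide, while Paneth cells, goblet cells and enterocytes do not.

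Promoters of the members were read to show what separates both phases at the level of sequence. RefSeq windows (GRCm38.p6) from 250 bases before to 50 bases after the transcription start matched 39 of the 47 members by symbol. Mcm4, Gins1, Gins2, Ccne2, Ccna2, Aurkb, Kif20a and Tpx2 had no entry. The windows below belong to 3 S-phase and 3 mitotic members whose levels are described further on. Capitals mark E2F motifs (TTTGGCGC, TTTGCCGC, TTTCGCGC or TTTCCCGC), CHR motifs (TTTGAA or TTCGAA) and NF-Y boxes (CCAAT), each on either strand, and matches may overlap. The windows lie at chr1:20820263-20820562 (Mcm3, minus strand), chr1:128359656-128359955 (Mcm6, minus), chr7:48881547-48881846 (E2f8, minus), chr11:99024140-99024439 (Top2a, minus), chr7:122159185-122159484 (Plk1, plus) and chr11:40733388-40733687 (Hmmr, minus). Each is printed 5′ to 3′ on the gene's strand, so the last 50 bases are transcribed.
Mcm3: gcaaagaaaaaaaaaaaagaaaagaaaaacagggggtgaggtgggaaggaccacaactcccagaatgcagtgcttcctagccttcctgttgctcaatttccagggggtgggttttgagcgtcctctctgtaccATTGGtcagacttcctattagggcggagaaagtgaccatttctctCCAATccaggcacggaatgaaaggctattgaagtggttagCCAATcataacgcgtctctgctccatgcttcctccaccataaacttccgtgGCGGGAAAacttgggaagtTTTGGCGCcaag
Mcm6: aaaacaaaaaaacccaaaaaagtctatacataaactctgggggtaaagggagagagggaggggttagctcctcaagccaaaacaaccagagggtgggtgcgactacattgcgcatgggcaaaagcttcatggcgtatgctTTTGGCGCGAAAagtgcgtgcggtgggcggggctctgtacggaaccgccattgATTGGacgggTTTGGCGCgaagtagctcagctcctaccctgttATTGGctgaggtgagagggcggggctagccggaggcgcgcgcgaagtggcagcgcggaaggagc
E2f8: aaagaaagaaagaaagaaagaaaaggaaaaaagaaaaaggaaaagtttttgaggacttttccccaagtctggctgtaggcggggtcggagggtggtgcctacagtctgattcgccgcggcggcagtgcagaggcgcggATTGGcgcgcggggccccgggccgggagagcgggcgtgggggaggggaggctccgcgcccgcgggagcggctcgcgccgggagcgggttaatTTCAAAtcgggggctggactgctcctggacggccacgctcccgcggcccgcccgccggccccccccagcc
Top2a: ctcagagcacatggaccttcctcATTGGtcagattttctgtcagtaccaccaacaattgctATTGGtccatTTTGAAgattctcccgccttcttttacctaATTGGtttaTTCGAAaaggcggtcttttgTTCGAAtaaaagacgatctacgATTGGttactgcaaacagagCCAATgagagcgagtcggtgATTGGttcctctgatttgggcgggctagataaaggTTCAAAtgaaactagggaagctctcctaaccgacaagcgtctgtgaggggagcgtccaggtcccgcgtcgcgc
Plk1: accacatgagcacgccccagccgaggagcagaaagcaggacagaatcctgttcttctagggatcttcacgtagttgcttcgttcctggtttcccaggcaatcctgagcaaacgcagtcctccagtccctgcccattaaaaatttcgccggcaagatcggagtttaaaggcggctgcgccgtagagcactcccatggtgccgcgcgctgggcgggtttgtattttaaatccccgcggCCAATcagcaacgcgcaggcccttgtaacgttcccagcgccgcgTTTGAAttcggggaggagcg
Hmmr: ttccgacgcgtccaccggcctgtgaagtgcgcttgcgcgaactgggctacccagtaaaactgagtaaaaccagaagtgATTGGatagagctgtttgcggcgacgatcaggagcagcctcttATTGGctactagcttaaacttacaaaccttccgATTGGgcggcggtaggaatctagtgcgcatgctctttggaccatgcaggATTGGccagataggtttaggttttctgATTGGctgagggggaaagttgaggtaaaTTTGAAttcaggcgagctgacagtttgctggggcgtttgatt

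The Mcm3 and Mcm6 windows, of helicase subunits, held E2F motifs and NF-Y boxes and no CHR motif. In Mcm6, the first pair of E2F matches overlapped on opposite strands. The windows of Top2a (topoisomerase, which untangles chromosomes), Plk1 (a mitotic kinase) and Hmmr (a spindle microtubule protein) held CHR motifs and NF-Y boxes and no E2F motif. E2f8, a repressor of the E2F family counted among the S-phase members, held a CHR motif and an NF-Y box as the mitotic genes did.

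Over all matched members, an E2F motif stood in 6 of 16 S-phase windows (37.5%) and 1 of 23 mitotic windows (4.35%, that of Cdk1, the kinase that drives mitosis), against 2.32% of 27025 gene windows of the same length. A CHR motif stood in 3 of 16 S-phase windows (18.8%) and 18 of 23 mitotic windows (78.3%), against 19.4% of all windows. NF-Y boxes were found in 62.5% of S-phase and 82.6% of mitotic windows, against 37.9% of all. CHR and NF-Y together were found in 18.8% of S-phase and 73.9% of mitotic windows, against 7.70%. These are matches of letters and were not tested as binding sites.

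**Figure D1:**
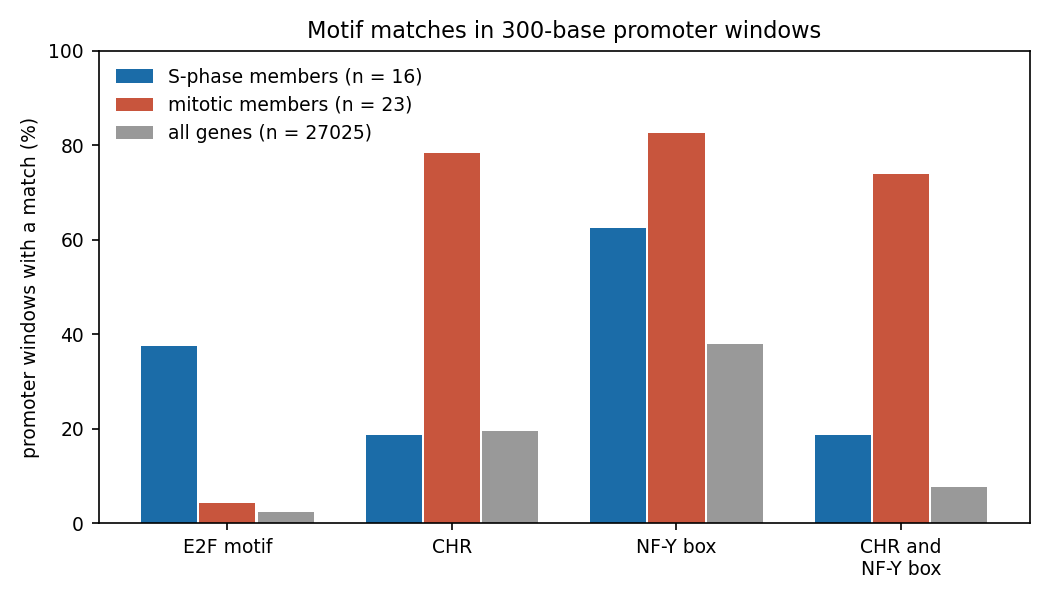
Bars give the percentage of promoter windows with at least 1 match to the E2F motif, the CHR motif, the NF-Y box, or CHR and NF-Y box together (x axis), for 16 S-phase members, 23 mitotic members and 27025 gene windows. CHR matches stand in 78.3% of mitotic and 18.8% of S-phase windows, and E2F matches in 4.35% and 37.5%.

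The libraries were unequal before any member was considered. Gene counts per library were 11524335 to 45516228, and the ileal Sec-Cre ISCs held both extremes. Their replicates 1 and 2 had 57.0% and 35.8% unmapped reads, against 2.58% to 13.9% in the other 11 libraries. Markers of Paneth cells, the antimicrobial cells of the crypt base, took 24.9% and 0.844% of their counts, against 2.13% and 1.98% in ileal WT ISCs. Enterocyte markers took 1.56% and 1.96%, against 0.137% and 0.141%, and ISC markers 0.0649% and 0.232%, against 0.555% and 0.597%. All 8 ISC markers had counts in every library, and Lgr5 was at 51.9 to 281 CPM. In Sec-Cre over WT ileal ISCs, 6 of the 8 were not called, Lgr5 among them (-0.39), Slc12a2 was lower (-1.52, adjusted p = 0.0305) and Sox9 higher (1.69, adjusted p = 0.0405), with a median of -0.32. Of 10 Paneth markers only Defa23 was at 0 in the ISC libraries. The duodenal libraries were strand-specific (their second strand held 98.5% to 98.9% of gene reads), although the kit is labelled non-directional, and used TrypLE where the ileal cells had collagenase. Reads of Apc were summed over all its exons, whereas Cre removes a stretch between loxP sites, so Apc does not check the labels. Organoids held 185 and 204 CPM of it (Sec-Cre), 189 and 243 (ISC-Cre) and 156 and 139 (WT), and ISCs 239, 165 and 453 (duodenal ISC-Cre), 107 and 48.2 (ileal Sec-Cre) and 114 and 124 (ileal WT). The labels do not say whether replicates are different mice or cultures, so p-values reflect the scatter of these samples alone, and that scatter may be technical.

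Levels are in CPM (reads of a gene scaled to a common library total), scaled by TMM over all 13 libraries, and a mean level is the mean of log2(CPM + 0.125) over members. By this measure the 6 groups fell into high and low. S-phase members averaged 6.41 and 6.52 in Sec-Cre organoids, 6.27 and 6.26 in ISC-Cre organoids and 5.92 and 6.26 in WT organoids. In ISCs they averaged 5.49, 5.69 and 5.39 in duodenal ISC-Cre, 4.28 and 5.36 in ileal Sec-Cre and 6.11 and 6.10 in ileal WT libraries. WT ISCs thus lay within the range of the organoids, and every Apc-null ISC library lay below all other libraries.

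Mitotic members averaged 6.82 and 6.92 in Sec-Cre, 6.59 and 6.85 in ISC-Cre and 6.79 in both WT organoid libraries. In ISCs they averaged 5.55, 5.45 and 5.88 in duodenal ISC-Cre, 4.93 and 5.79 in ileal Sec-Cre and 6.79 and 6.72 in ileal WT. Both low groups overlapped each other for mitotic members. Ileal Sec-Cre ISCs had the lowest group mean of the 6 groups for 30 of the 47 members (16 S-phase, 14 mitotic) and duodenal ISCs for the other 17 (4 S-phase, 13 mitotic). The highest mean was in Sec-Cre organoids for 28 members (16 S-phase, 12 mitotic), in ileal WT ISCs for 11, in WT organoids for 6, and in ISC-Cre organoids (Prc1, a bundler of midzone microtubules) and ileal Sec-Cre ISCs (Gins2, a GINS subunit) for 1 each. The reads of Gins2 are uncertain, since 66.2% of the 31-base words in its transcripts also occur in those of other genes. Order of group means is a description, since neighbouring groups mostly overlapped. In bulk RNA, fewer dividing cells and less RNA per cell cannot be told apart.

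**Figure D2:**
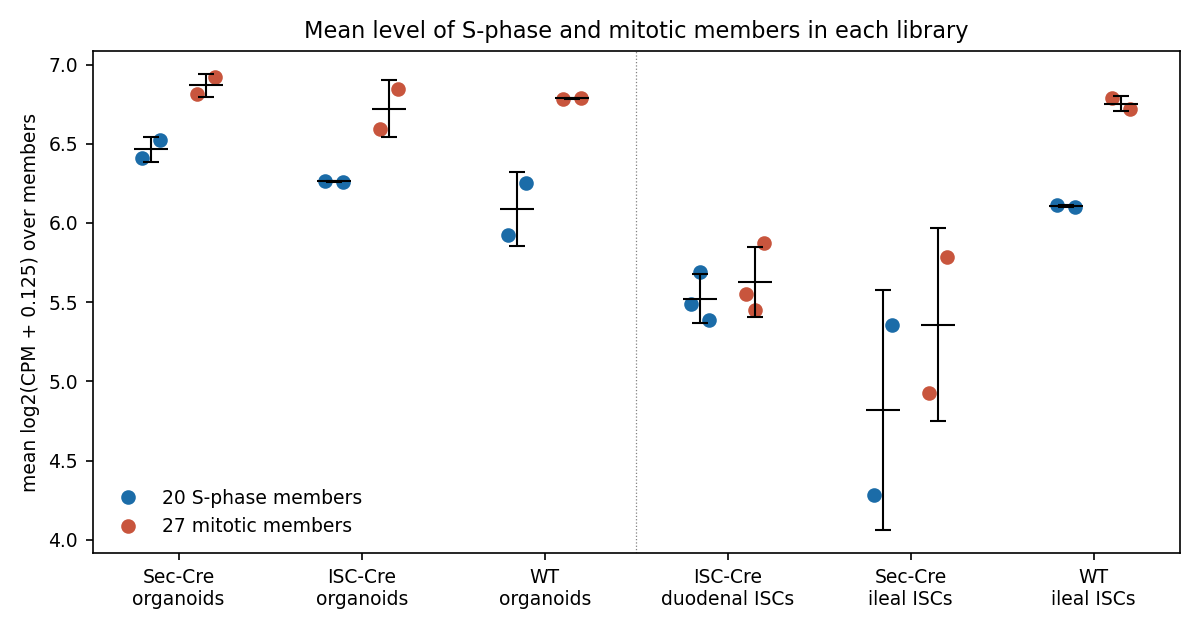
Each point is 1 library: the mean log2(CPM + 0.125) of the 20 S-phase and of the 27 mitotic members (y axis) in the 6 groups (x axis), with bars at the group mean ± SD. Ileal Sec-Cre and duodenal ISC-Cre ISCs lie at 4.28 to 5.88, below the organoid and ileal WT ISC libraries at 5.92 to 6.92.

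The balance of both phases set the duodenal ISCs apart from the other groups by value. The S-phase mean minus the mitotic mean was -0.06, 0.24 and -0.49 in duodenal ISC-Cre ISCs. It was -0.65 and -0.43 in ileal Sec-Cre ISCs and -0.68 and -0.62 in ileal WT ISCs. In organoids it was -0.41 and -0.40 in Sec-Cre, -0.33 and -0.59 in ISC-Cre and -0.86 and -0.53 in WT. Duodenal replicates 1 and 2 exceeded every other library, while replicate 3, in which Rn45s, the ribosomal RNA precursor, took 5.26% of counts, lay inside the range of the rest.

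Per kilobase of principal transcript, Pcna was the most abundant S-phase member and Ube2c, the ubiquitin-conjugating enzyme that ends mitosis, the most abundant mitotic member in each of the 6 group means. Pcna was at 195 CPM per kb in Sec-Cre, 152 in ISC-Cre and 203 in WT organoids, and at 71.9 in duodenal, 57.8 in ileal Sec-Cre and 158 in ileal WT ISCs. Ube2c was at 173, 157 and 152 CPM per kb in the same organoid groups, and at 55.9, 102 and 131 in the same ISC groups. The lowest S-phase member per kb was Ccne2, a cyclin E that starts S phase, at 1.07 to 2.71 CPM per kb. By group mean, the order of ileal Sec-Cre and duodenal ISCs was opposite for Pcna and Ube2c. For Pcna the libraries overlapped, at 107, 127 and 93.1 CPM in duodenal and 77.3 and 98.0 CPM in ileal Sec-Cre ISCs. Ube2c has a short transcript (0.967 kb), and its fold change between these groups changed sign with a length trend removed, as given below. Of the 31-base words of Pcna and Ube2c, 23.3% and 25.3% are shared with other transcripts.

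**Figure D3:**
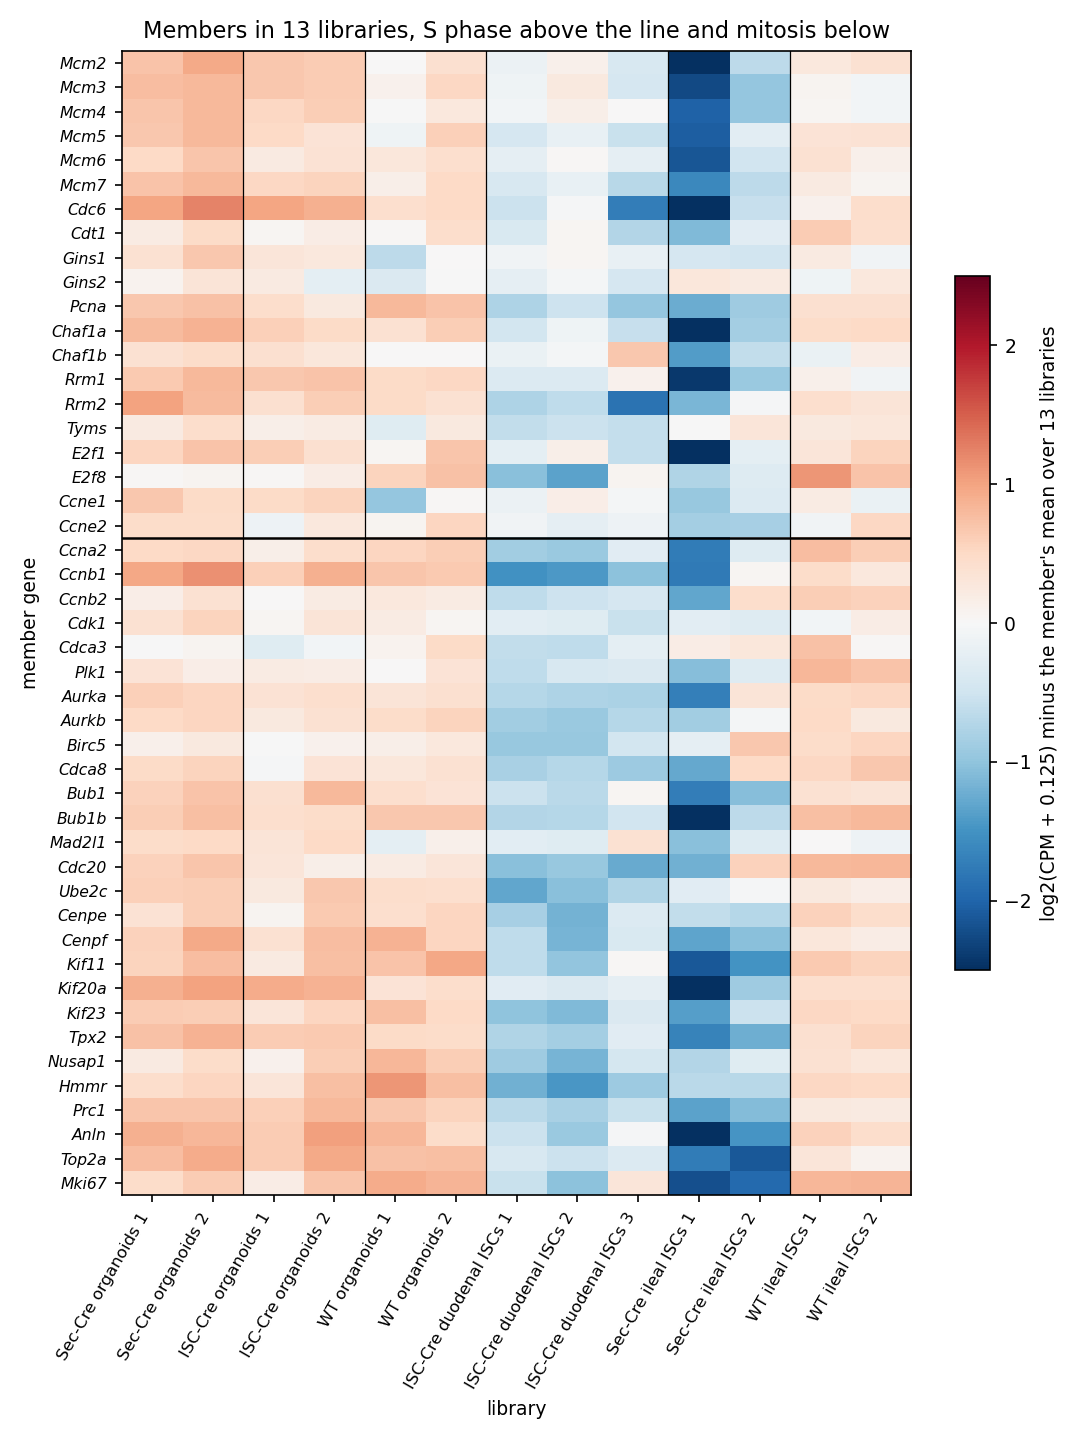
Rows are the 47 members (S phase above the line, mitosis below) and columns the 13 libraries, and colour gives log2(CPM + 0.125) minus the member's mean over the 13 libraries. The Apc-null ISC libraries are low over most rows, and ileal Sec-Cre replicate 1 is below replicate 2 for 41 of 47 members.

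In organoids the members moved little with loss of Apc. In Sec-Cre against WT organoids, edgeR's quasi-likelihood test, with Benjamini-Hochberg adjustment over all genes and a threshold of 0.05, called 4 of 47 members higher and 1 lower. This was below the background, since 16.7% of all tested genes were called higher and 16.3% lower, and the members' shares were 8.51% and 2.13%. The members called were 3 helicase genes and Kif20a upward, and E2f8 downward. The fold changes of S-phase members had a median of 0.35 (log2) with 18 of 20 above 0, those of mitotic members a median of 0.02 with 15 of 27 above 0, and all genes a median of 0.05.

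Mcm4, a helicase subunit, was at 208 and 224 CPM in Sec-Cre organoids, against 128 and 153 CPM in WT organoids. Both Sec-Cre libraries lay above both WT libraries, and Mcm4 rose by a log2 fold change of 0.57 ± 0.13 SE (adjusted p = 0.0139). Mcm2, another subunit, was at 231 and 273 CPM in Sec-Cre, against 143 and 188 CPM in WT organoids (0.56 ± 0.16, adjusted p = 0.0338). Cdc6, the loader of the helicase, was at 51.4 and 62.0 CPM in Sec-Cre, against 35.0 and 37.1 CPM in WT organoids (0.60 ± 0.16, adjusted p = 0.0224). These groups did not overlap either. All 10 helicase loading and activation genes had fold changes above 0, with a median of 0.42, and 6 of them an unadjusted p under 0.05. Mcm6, the helicase subunit with the highest CPM, was at 288 and 330 CPM in Sec-Cre, against 246 and 274 CPM in WT organoids, and was not called.

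Kif20a, a kinesin of the spindle midzone, was at 93.2 and 102 CPM in Sec-Cre, against 64.1 and 68.5 CPM in WT organoids (0.50 ± 0.12, adjusted p = 0.0187). Of its 31-base words, 26.7% also occur in a transcript of another gene, so its reads are uncertain. E2f8 was at 41.2 and 42.1 CPM in Sec-Cre, against 59.6 and 66.5 CPM in WT organoids, a fall (-0.65 ± 0.14, adjusted p = 0.0112) against the direction of the other called S-phase members. Mki67, a coat protein of mitotic chromosomes used to mark dividing cells, was at 475 and 541 CPM in Sec-Cre, against 665 and 630 CPM in WT organoids (-0.40 ± 0.17, adjusted p = 0.112), and was not called. Top2a was at 661 and 735 CPM in Sec-Cre, against 643 and 657 CPM in WT (0.05 ± 0.14, adjusted p = 0.802).

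In Sec-Cre over WT organoids, 14 S-phase and 12 mitotic members had both Sec-Cre libraries above both WT libraries, 26 of 47, against 41.1% of all genes. In 6 members both Sec-Cre libraries lay below, against 30.3% of all genes for the lower side. The count of called members rested on single libraries: without Sec-Cre replicate 1 or 2 it was 0 by edgeR (6 and 5 at an unadjusted p under 0.05), where 17.5% and 18.4% of all genes were called, and without WT replicate 2 it was 13 (34.6% of all genes). DESeq2 called 11 members (23.4%) where it called 38.3% of all genes, and limma voom 5 (10.6%) where it called 30.6%. A fit of all 13 libraries called 0 (3 at an unadjusted p under 0.05), where it called 16.3% of all genes.

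Markers of differentiated cells moved in the same contrast. All 9 enterocyte markers were called lower (median -8.21), and together they took 0.0474% and 0.0548% of counts in Sec-Cre organoids, against 0.351% and 0.253% in WT organoids, with Apoa4 at 0 in both Sec-Cre libraries. Also called lower were 6 of 7 goblet markers (median -3.61), 7 of 8 enteroendocrine markers (-5.09), all 5 tested tuft markers (-4.24) and 6 of 8 tested Paneth markers (-2.16, 1 higher). Of 6 tested stromal and endothelial markers, 3 were called higher (7.10), at 0.0023% and 0.0012% of counts in Sec-Cre organoids, against 0.000015% and 0.000089% in WT organoids. Of 8 ISC markers, Olfm4 (-4.90) and Slc12a2 (-1.01) were lower and Ascl2 was higher (1.24). Their part in the member levels was not tested. Of 39 other replication genes 2 were called higher and 0 lower, and of 47 other mitosis genes 7 were called higher and 0 lower. These shares of higher calls, 5.13% and 14.9%, were under the 16.7% of all genes. Among the mitosis genes were Gtse1, a regulator of the G2 to M step (0.96 ± 0.16, adjusted p = 0.00380), and Cep55, a protein of the last cut between daughter cells (0.80 ± 0.14, adjusted p = 0.00437). Of 17 Rb, E2F and DREAM regulators 1 was higher and 2 were lower: E2f2, an activating E2F, at -1.53 ± 0.19 (adjusted p = 0.00110), and Rb1, the retinoblastoma protein that holds E2F in check, at -1.81 ± 0.42 (adjusted p = 0.0143).

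In ISC-Cre against the same WT organoids, 2 members were called higher and 3 lower, where 19.3% of all genes were called higher and 18.5% lower. The WT libraries are shared with the comparison above, so the values stand side by side and their likeness is no result. Mcm4 was at 182 and 196 CPM in ISC-Cre, against 128 and 153 CPM in WT organoids (0.40 ± 0.13, adjusted p = 0.0471), and Kif20a at 96.9 and 93.2 CPM in ISC-Cre, against 64.1 and 68.5 CPM in WT (0.49 ± 0.12, adjusted p = 0.0188). Both rose, with no overlap between groups. E2f8 fell, at 41.0 and 45.6 CPM in ISC-Cre, against 59.6 and 66.5 CPM in WT organoids (-0.58 ± 0.14, adjusted p = 0.0154). Pcna fell too, at 246 and 215 CPM in ISC-Cre, against 319 and 299 CPM in WT organoids (-0.46 ± 0.13, adjusted p = 0.0275). Of the 31-base words of Pcna, 23.3% are shared with other transcripts. Cdca3, which triggers the breakdown of a mitotic inhibitor, was at 61.4 and 72.2 CPM in ISC-Cre, against 81.2 and 106 CPM in WT organoids (-0.52 ± 0.16, adjusted p = 0.0370). The median fold change was 0.15 for S-phase members and -0.13 for mitotic members, against 0.03 for all genes.

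For ISC-Cre over WT organoids, 12 members had both ISC-Cre libraries above both WT libraries (37.2% of all genes did) and 9 had both below (31.3%). The count of 5 called members fell without either Sec-Cre library, either ISC-Cre library or WT replicate 1, and rose without WT replicate 2. Each such fit leaves 1 library in a group. The share of all genes called, 37.8% in the main fit, fell too, except without WT replicate 2, where it hardly changed. In each fit the members' share called stayed under that of all genes. DESeq2 called 10 (21.3%) where it called 42.2% of all genes, and a fit of these groups alone called 2 (4.26%) where it called 32.2%.

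Markers of other cells moved in ISC-Cre against WT organoids too. All 9 enterocyte markers were called lower (median -8.56), at 0.0413% and 0.0394% of counts in ISC-Cre organoids, against 0.351% and 0.253% in WT organoids, and Alpi, Apoa4 and Fabp1 were at 0 in ISC-Cre replicate 1. Lower too were 6 of 7 goblet markers (-2.61), 6 of 8 enteroendocrine markers (-4.47), all 5 tested tuft markers (-4.84) and 3 of 8 tested Paneth markers (-0.89, 1 higher), and 4 of 6 tested stromal and endothelial markers were higher (7.26). Of 8 ISC markers, Olfm4 (-5.37), Slc12a2 (-1.43), Lgr5 (-1.27) and Rgmb (-1.20) were lower and Ascl2 was higher (0.85). Their part in the member levels was not tested.

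Between both Apc-null organoids no member was called by edgeR in either direction, where no gene was called higher and 0.0422% of genes lower. DESeq2 and limma voom also called 0. At an unadjusted p under 0.05, 3 members differed by edgeR, 3 by DESeq2 and 7 by limma voom. By edgeR these were Cdc20, which activates the anaphase-promoting complex, Pcna, and Rrm2, the regulated subunit of the enzyme that makes deoxyribonucleotides. Cdc20 was at 136 and 148 CPM in Sec-Cre, against 113 and 101 CPM in ISC-Cre organoids (0.39 ± 0.13, adjusted p = 0.984). Fold changes were small and mostly above 0: 42 of 47 members were positive, with medians of 0.18 for S-phase and 0.14 for mitotic members, against 0.00 for all genes. In 25 members both Sec-Cre libraries lay above both ISC-Cre libraries, against 22.9% of all genes, and in no member did both lie below (16.7% of all genes).

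In ileal ISCs the members were lower with loss of Apc in the secretory lineage. In Sec-Cre against WT ileal ISCs, edgeR called 18 of 47 members lower (4 S-phase, 14 mitotic) and 0 higher, and 29 had an unadjusted p under 0.05. Of all tested genes 6.96% were called lower and 9.62% higher, and the members' share called lower was 38.3%. The median fold change was -1.30 for S-phase members, -1.19 for mitotic members and 0.00 for all genes, and 46 of 47 members were below 0. In 43 members both Sec-Cre libraries lay below both WT libraries, against 31.1% of all genes, and in 0 did both lie above (29.1% of all genes).

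Among genes of mitotic chromosomes, Mki67 lies at chr7:135689784-135716361 and Top2a at chr11:98992943-99024189 (GENCODE vM21, GRCm38). Mki67 was at 75.6 and 90.3 CPM in Sec-Cre ISCs, against 616 and 625 CPM in WT ISCs, 7.48-fold lower (log2 fold change -2.90 ± 0.45 SE, adjusted p = 0.00606). Top2a was at 116 and 89.1 CPM in Sec-Cre ISCs, against 483 and 415 CPM in WT ISCs, 4.37-fold lower (-2.13 ± 0.30, adjusted p = 0.00458). For both genes the groups lay far apart and the Sec-Cre replicates lay close together. Kif11, the motor that pushes spindle poles apart, was at 21.2 and 32.9 CPM in Sec-Cre ISCs, against 147 and 138 CPM in WT ISCs (-2.39 ± 0.39, adjusted p = 0.00707). Tpx2, which activates Aurora A on spindle microtubules, was at 24.9 and 34.1 CPM in Sec-Cre ISCs, against 106 and 117 CPM in WT ISCs (-1.91 ± 0.32, adjusted p = 0.00737).

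Among the mitotic roles, 6 of 8 spindle and midzone genes were called lower: Kif11, Tpx2, Prc1 (a microtubule bundler), Anln (a scaffold of the cleavage furrow), Hmmr and Kif23 (a midzone motor). Anln was at 7.88 and 18.8 CPM in Sec-Cre ISCs, against 78.2 and 71.3 CPM in WT ISCs (-2.45 ± 0.47, adjusted p = 0.0113). The other called mitotic genes were Plk1, the kinetochore proteins Cenpe and Cenpf, the checkpoint kinases Bub1 and Bub1b, and cyclin A2 (Ccna2). Ccna2 was at 33.0 and 89.2 CPM in Sec-Cre ISCs, against 190.3 and 171 CPM in WT ISCs, and Cenpf at 31.5 and 38.1 CPM, against 97.0 and 89.6 CPM. None of the 3 passenger complex genes was called. Birc5, the survivin subunit of that complex, was at 52.7 and 98.3 CPM in Sec-Cre ISCs, against 84.5 and 88.8 CPM in WT ISCs, so the groups overlapped.

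In the S-phase set, Pcna was at 77.3 and 98.0 CPM in Sec-Cre ISCs, against 240.5 and 239 CPM in WT ISCs (-1.45 ± 0.29, adjusted p = 0.0134). Mcm4 was at 31.5 and 65.3 CPM in Sec-Cre ISCs, against 132 and 122 CPM in WT ISCs (-1.39 ± 0.35, adjusted p = 0.0324). Mcm3 was at 26.3 and 64.1 CPM in Sec-Cre ISCs, against 132 and 119.5 CPM in WT ISCs (-1.46 ± 0.42, adjusted p = 0.0473). The groups were apart in each of these, and the 3 genes fell. Chaf1a, the large subunit of the nucleosome assembly factor, was at 7.88 and 28.8 CPM in Sec-Cre ISCs, against 71.1 and 73.2 CPM in WT ISCs (-1.94 ± 0.52, adjusted p = 0.0369), though 51.0% of its 31-base words are shared with other transcripts. Gins2 was the 1 member above 0, at 27.1 and 26.1 CPM in Sec-Cre ISCs, against 20.8 and 26.7 CPM in WT ISCs. Of its 31-base words, 66.2% are shared with other transcripts, and 67.3% of its exon bases overlap another gene, so its reads are uncertain. Tyms, which makes thymidylate, was at 58.8 and 73.2 CPM in Sec-Cre ISCs, against 70.5 and 72.0 CPM in WT ISCs, and was not called.

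The Sec-Cre replicates differed in how far the members were down. Replicate 1 was below replicate 2 for 41 of 47 members. As a share of the WT mean, S-phase members had a median of 30.5% in replicate 1 and 57.1% in replicate 2, and mitotic members 27.02% and 48.1%. Mki67 stood at 12.2% and 14.5% of the WT mean, Top2a at 25.9% and 19.9%, Kif11 at 14.9% and 23.1% and Hmmr at 44.1% and 43.4%. These 4 were under 50% of the WT mean in both libraries. Cdca8, a passenger complex subunit, stood at 27.2% and 93.7%, Cdc20 at 24.7% and 83.8%, cyclin B2 (Ccnb2) at 26.8% and 89.3%, and Aurka, the spindle pole kinase, at 21.5% and 88.3%. In these 4, replicate 2 lay near the WT mean and replicate 1 far below it. Their principal transcripts were short, at 1.63, 1.79, 1.53 and 1.91 kb. Those of Mki67, Top2a, Kif11 and Hmmr were longer, at 10.1, 5.22, 4.82 and 3.89 kb. All 8 genes were chosen after their values were seen, and other members went otherwise. Pcna, with a transcript of 1.52 kb, stood at 32.2% and 40.9% of the WT mean. Cdk1, with one of 4.38 kb, stood at 79.4% and 76.6%. The part of length was not tested.

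**Figure D4:**
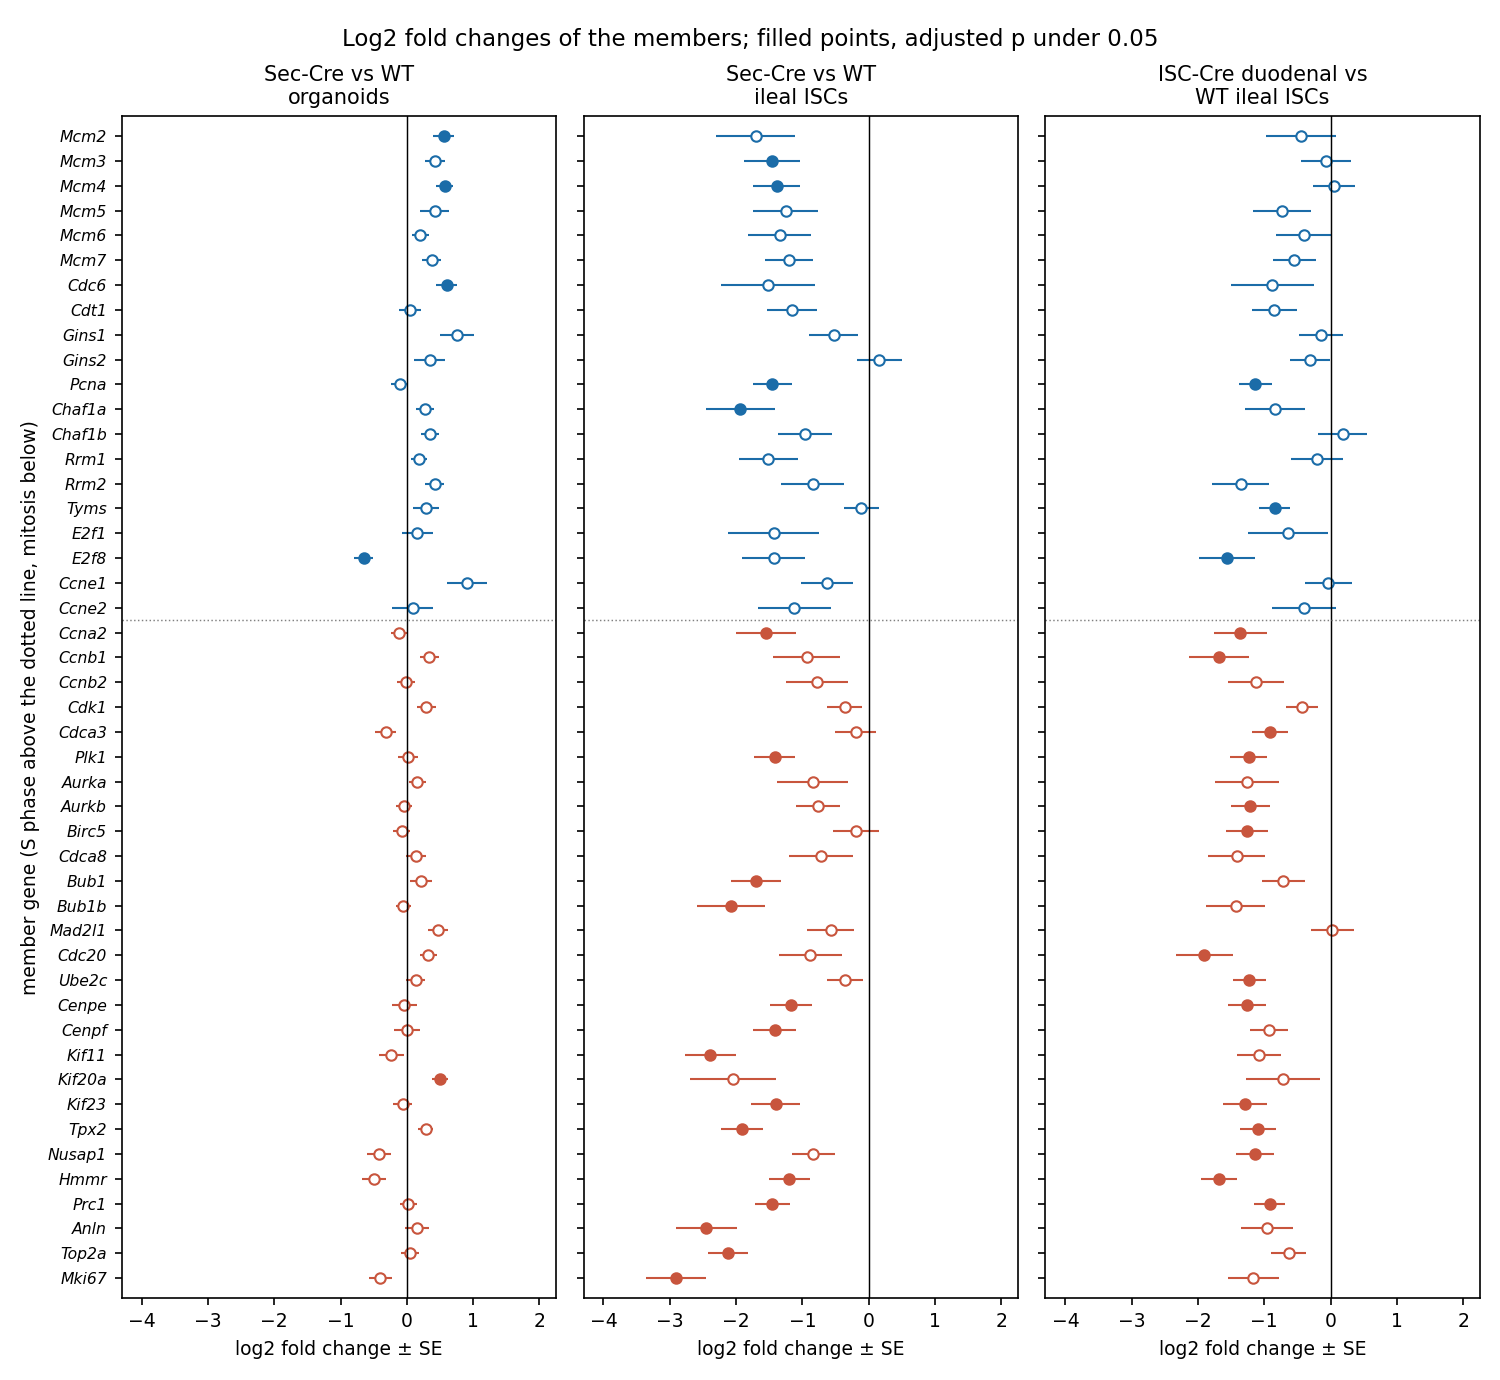
Points are log2 fold changes (x axis, bars SE) of the 47 members (y axis) in Sec-Cre over WT organoids, ileal Sec-Cre over WT ISCs, and duodenal ISC-Cre over ileal WT ISCs, filled where adjusted p was under 0.05. Both ISC panels lie left of 0 for most members, with 18 and 17 filled points, and the organoid panel lies around 0 with 5.

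In Sec-Cre against WT ileal ISCs without Sec-Cre replicate 1, the library with 24.9% Paneth counts, 14 members were called, where 16.8% of all genes were. Without Sec-Cre replicate 2 the count rose, as did the share of all genes called. Without duodenal replicates 1 or 2, whose spread enters the same fit, 11 and 10 were called, where 10.0% and 10.6% of all genes were. Without WT replicate 1, 1 member was called (1.76% of all genes), and without WT replicate 2 edgeR called 0 (0.996% of all genes), although 24 had an unadjusted p under 0.05. Other cell type markers moved with this contrast in both directions. Of 9 enterocyte markers 8 were called higher (median log2 fold change 6.20, none at 0). The 9 tested Paneth markers had a median of 4.24 with 1 called, but their share in Sec-Cre replicate 2 (0.844%) lay under both WT libraries. Goblet markers took 1.24% and 0.479% of counts in Sec-Cre ISCs, against 1.44% and 1.68% in WT ISCs. Enteroendocrine markers took 0.0082% and 0.0263%, against 0.0541% and 0.0747%. Tuft and immune shares overlapped between the groups. The part of these markers in the lower member levels was not tested. With Paneth markers, Rn45s and Lars2 left out before scaling, 19 members were called, where 16.8% of all genes were.

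Transcript length moved with the same contrast. Over all genes, the median log2 fold change in Sec-Cre over WT ileal ISCs was 0.70 for principal transcripts under 2 kb and -0.60 for those over 6 kb. The members followed below it: 12 members under 2 kb had a median of -0.74, 10 of 2 to 3 kb -1.27, 15 of 3 to 4 kb -1.43, 6 of 4 to 6 kb -2.03 and 4 over 6 kb -1.30. All 12, all 10, 13 of 15, 5 of 6 and 3 of 4 of these lay below the median of all genes in their length class. With the length trend removed, a setting chosen after seeing the data, 13 members were called and 36 had an unadjusted p under 0.05, where 12.8% of all genes were called. The part of length in each member's fold change was not tested.

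**Figure D5:**
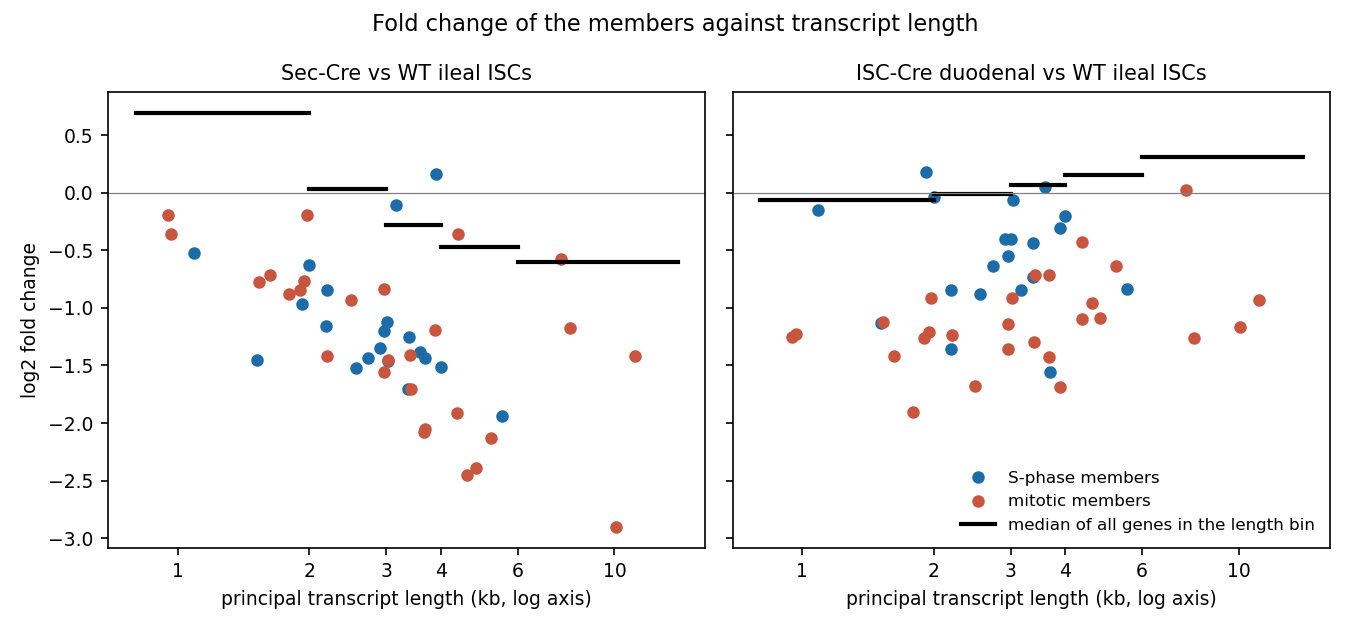
Each point is 1 member, with its principal transcript length (x axis, log scale) and its log2 fold change (y axis), and lines give the median of all genes in 5 length classes, for ileal Sec-Cre over WT ISCs (left) and duodenal ISC-Cre over ileal WT ISCs (right). In ileal Sec-Cre over WT ISCs the line falls to -0.60 over 6 kb and starts at 0.70 under 2 kb, with most members below it.

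Other genes of both processes, from lists chosen with earlier results known, gave like counts in Sec-Cre against WT ileal ISCs. Their shares called lower were 30.8% for replication and 40.4% for mitosis genes, where 6.96% of all genes were called lower and 9.62% higher. Of 39 other replication genes, 12 were called lower and 0 higher, among them Pole, the leading-strand polymerase (-2.24 ± 0.29, adjusted p = 0.00390), and Pola1, the primase polymerase (-2.08 ± 0.32, adjusted p = 0.00595). Of 47 other mitosis genes, 19 were called lower and 0 higher, among them Espl1, the separase that cuts cohesin (-2.80 ± 0.38, adjusted p = 0.00419), and Kif15, a spindle motor (-2.16 ± 0.32, adjusted p = 0.00532). Of 17 Rb, E2F and DREAM regulators, 3 were lower and 1 higher. Mybl2, the MuvB partner in S phase, was at -1.56 ± 0.34 (adjusted p = 0.0182), and Lin37, a core MuvB subunit, at 1.57 ± 0.34 (adjusted p = 0.0187).

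Duodenal ISC-Cre ISCs were compared with ileal WT ISCs, which the preceding contrast also used, so likeness between both is no result. Region, day, Cre driver, the Lgr5DTR-GFP allele, dissociation enzyme and library strandedness differed together with Apc here and cannot be told apart. Of 47 members 17 were called lower (3 S-phase, 14 mitotic) and 0 higher, where 8.84% of all genes were called lower and 10.2% higher. The median fold change was -0.49 for S-phase and -1.16 for mitotic members, against 0.07 for all genes. Every duodenal library lay below both WT libraries in 12 of 20 S-phase and 26 of 27 mitotic members, 38 in all, against 29.1% of all genes, and no member had every duodenal library above (32.2% of all genes).

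Hmmr was at 19.7, 16.5 and 24.1 CPM in duodenal ISC-Cre ISCs, against 65.3 and 64.3 CPM in ileal WT ISCs, 3.22-fold lower (log2 fold change -1.69 ± 0.27 SE, adjusted p = 0.00410). Cdc20 was at 44.2, 47.2 and 38.1 CPM in duodenal ISCs, against 161 and 163 CPM in WT ISCs (-1.90 ± 0.43, adjusted p = 0.0180), and 26.7% of its 31-base words are shared with other transcripts. Plk1 was at 65.5, 76.7 and 78.3 CPM in duodenal ISCs, against 181 and 165 CPM in WT ISCs (-1.24 ± 0.28, adjusted p = 0.0171). The 3 genes fell, with every duodenal value far under both WT values. Ube2c was at 44.7, 53.0 and 64.5 CPM in duodenal ISCs, against 130.1 and 123 CPM in WT ISCs (-1.22 ± 0.25, adjusted p = 0.0114). Of its 31-base words, 25.3% are shared. Also called were Cenpe, the spindle genes Tpx2, Kif23, Nusap1 and Prc1, the passenger genes Aurkb and Birc5, cyclins B1 and A2 (Ccnb1, Ccna2), and Cdca3, at log2 fold changes of -0.92 to -1.68.

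Of the 20 S-phase members 3 were called, and a difference between phases was not tested. None of the 10 helicase loading and activation genes was called by edgeR (1 at an unadjusted p under 0.05), with a median of -0.42. Mcm4 was at 123, 142 and 129 CPM in duodenal ISCs, against 132 and 122 CPM in ileal WT ISCs, with overlapping groups. Mcm6 was at 173, 209 and 174 CPM in duodenal ISCs, against 266 and 223 CPM in WT ISCs, apart but not called. Pcna fell, at 107, 127 and 93.1 CPM in duodenal ISCs, against 240.5 and 239 CPM in WT ISCs (-1.13 ± 0.25, adjusted p = 0.0174). E2f8 fell, at 19.5, 15.8 and 42.4 CPM in duodenal ISCs, against 86.3 and 65.7 CPM in WT ISCs (-1.56 ± 0.42, adjusted p = 0.0345), with replicate 3 standing above the other duodenal libraries. Tyms fell, at 39.0, 40.8 and 39.1 CPM in duodenal ISCs, against 70.5 and 72.0 CPM in WT ISCs (-0.84 ± 0.24, adjusted p = 0.0388).

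As a share of the WT mean, S-phase members had medians of 69.5%, 80.5% and 58.4% in duodenal replicates 1, 2 and 3, and mitotic members 42.3%, 39.4% and 55.1%. Replicates 1 and 2 thus kept a wide gap between phases and replicate 3 hardly any. Mki67 showed the same replicate 3, at 235, 171 and 428 CPM in duodenal ISCs, against 616 and 625 CPM in WT ISCs (-1.16, adjusted p = 0.0645). Hmmr was called in all 17 alternative fits, with adjusted p of up to 0.0456. The count of 17 was 1 without WT replicate 1 or 2, where 7.53% and 6.10% of all genes were called. It was 1 without duodenal replicate 1 and 3 without duodenal replicate 2, where 9.64% and 10.2% were. It was higher without either Sec-Cre library, whose spread enters the fit, and so was the share of all genes called.

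Of all genes in duodenal against ileal WT ISCs, 8.84% were called lower and 10.2% higher. Of the other lists, 7 of 39 replication genes (17.9%) were called lower and 1 higher, and 14 of 47 mitosis genes (29.8%) lower and 0 higher. Among them were Tk1, the salvage thymidine kinase (-1.98 ± 0.39, adjusted p = 0.00952), and Cks2, a Cdk subunit (-1.70 ± 0.24, adjusted p = 0.00249). Of 17 Rb, E2F and DREAM regulators, E2f2 was the 1 called, and it was lower (-2.77 ± 0.50, adjusted p = 0.00717). The 8 enteroendocrine markers were all called lower and 3 of 4 tested stromal markers higher in the same contrast. ISC markers took 0.282%, 0.304% and 0.278% of counts in duodenal ISCs, against 0.555% and 0.597% in WT ISCs. Lgr5 among them was higher by value, at 227, 222 and 248 CPM, against 97.7 and 61.4 CPM. Goblet markers took 0.0894%, 0.124% and 0.117%, against 1.44% and 1.68%. Paneth and immune shares were lower by value too, and enterocyte and tuft shares overlapped. The part of these markers was not tested.

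Set directly against ileal Sec-Cre ISCs, the duodenal ISCs had 10 members called higher and 3 lower, where 21.0% of all genes were called higher and 19.8% lower. The members' share of higher calls, 21.3%, was that of all genes, and their share of lower calls, 6.38%, was under it. The same confounders apply as above. The median fold change was 0.65 for S-phase members, 0.11 for mitotic members and 0.12 for all genes. Every duodenal library lay above both Sec-Cre libraries in 19 members (34.2% of all genes) and below them in 6 (28.3%).

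Top2a was at 294, 267 and 306 CPM in duodenal ISC-Cre ISCs, against 116 and 89.1 CPM in ileal Sec-Cre ISCs (log2 fold change 1.50 ± 0.28 SE, adjusted p = 0.00396). Mcm4 was at 123, 142 and 129 CPM in duodenal ISCs, against 31.5 and 65.3 CPM in Sec-Cre ISCs (1.43 ± 0.33, adjusted p = 0.0101). Both were called in all 17 alternative fits. Mki67 was at 235, 171 and 428 CPM in duodenal ISCs, against 75.6 and 90.3 CPM in Sec-Cre ISCs (1.74 ± 0.41, adjusted p = 0.0108). The other members called higher were Kif11, Anln, Mcm3, Rrm1 (the large subunit of ribonucleotide reductase), Chaf1b (the middle subunit of the nucleosome assembly factor), Bub1 and Tpx2, at 0.82 to 1.49. Rrm1 was at 144, 144 and 197 CPM in duodenal ISCs, against 34.2 and 95.2 CPM in Sec-Cre ISCs (1.31 ± 0.42, adjusted p = 0.0345).

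Against that majority, Ube2c was lower, at 44.7, 53.0 and 64.5 CPM in duodenal ISCs, against 90.1 and 107 CPM in Sec-Cre ISCs (-0.87 ± 0.25, adjusted p = 0.0237). Birc5 was lower, at 32.0, 32.1 and 44.9 CPM in duodenal ISCs, against 52.7 and 98.3 CPM in Sec-Cre ISCs (-1.06 ± 0.31, adjusted p = 0.0267). Tyms was at 39.0, 40.8 and 39.1 CPM in duodenal ISCs, against 58.8 and 73.2 CPM in Sec-Cre ISCs (-0.73 ± 0.24, adjusted p = 0.0361). The groups did not overlap for these 3. Ube2c and Birc5 have principal transcripts of 0.967 and 0.947 kb, and all genes under 2 kb had a median of -0.72 in this contrast, against 1.01 for those over 6 kb. With the length trend removed, Ube2c was at 0.17 (adjusted p = 0.689). The 13 calls became 6 without duodenal replicate 1 (12.8%) and 5 without duodenal replicate 2 (10.6%), where 28.8% and 32.0% of all genes were called. The count rose without Sec-Cre replicate 2 and fell without either WT library, fits that leave 1 library in a group. The share of all genes called fell in each of these fits. The members' share was above it only without Sec-Cre replicate 2.

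WT organoids were set against WT ileal ISCs. Time, culture, sorting and labelled genotype differ together between them, and possibly region, and cannot be told apart. edgeR called no member, where 1.98% of all genes were called higher and 1.89% lower, and DESeq2 and limma voom also called 0. At an unadjusted p under 0.05, 2 members differed by edgeR, 3 by DESeq2 and 6 by limma voom. Plk1 was at 102 and 128 CPM in WT organoids, against 181 and 165 CPM in WT ISCs (log2 fold change -0.59 ± 0.25 SE, adjusted p = 0.265). Top2a was at 643 and 657 CPM in WT organoids, against 483 and 415 CPM in WT ISCs (0.53 ± 0.24, adjusted p = 0.288). In both genes the groups did not overlap. Medians of fold changes were 0.01 for S-phase and 0.03 for mitotic members, within -0.59 to 0.53 over all 47. Both organoid libraries lay above both ISC libraries in 12 members (27.2% of all genes) and below in 7 (26.1%).

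The effect of secretory Apc loss was then compared between settings, as the log2 fold change in organoids minus that in ileal ISCs, in 1 fit of all 13 libraries. Time (10 and 21 days), the Lgr5DTR-GFP allele and possibly region differ together with setting and cannot be told apart. This difference was positive for 46 of 47 members and called for 23 (10 S-phase, 13 mitotic), with 0 called negative, where 13.4% of all genes were called positive and 26.4% in either direction. Its median was 1.58 for S-phase and 1.31 for mitotic members, against 0.16 for all genes. Over all genes this difference had a median of -0.58 for principal transcripts under 2 kb, 0.67 at 4 to 6 kb and 0.91 over 6 kb. Members of these length classes had medians of 0.96, 2.24 and 1.33. With the length trend removed, 21 members were called, where 25.1% of all genes were. The part of length was not tested.

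Top2a had a difference of 2.23 ± 0.34 SE (adjusted p = 0.000612), and its fold changes in the separate fits given before were 0.05 in organoids and -2.13 in ISCs. Tpx2 had 2.24 ± 0.34 (adjusted p = 0.000669), beside 0.28 in organoids and -1.91 in ISCs, and Anln 2.62 ± 0.53 (adjusted p = 0.00369), beside 0.15 in organoids and -2.45 in ISCs. These mitotic genes moved in ISCs and were not called in organoids. Mcm4 had 2.00 ± 0.40 (adjusted p = 0.00382), beside 0.57 in organoids and -1.39 in ISCs, and was called in opposite directions in both settings. Pcna had 1.39 ± 0.31 (adjusted p = 0.00678), beside -0.11 in organoids and -1.45 in ISCs. Mki67 had 2.55 ± 0.52 (adjusted p = 0.00404), beside -0.40 in organoids and -2.90 in ISCs, lower in both settings by value and called in ISCs alone. In 21 alternative fits, Top2a, Mki67, Tpx2, Prc1, Anln, Kif11, Bub1, Mcm4 and Pcna were called each time, 9 of the 23.

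The library quality values given for the ileal Sec-Cre ISCs enter this difference too, and their part in it was not tested. The count of 23 was 48.9% of members, where 26.4% of all genes were called. Without Sec-Cre ISC replicate 2 the count rose, as did the share of all genes. It fell without 1 library of Sec-Cre organoids, WT organoids or WT ISCs, and the share of all genes fell too. Each such fit leaves 1 library in a group, and in each the members' share stayed above that of all genes. Of the other lists, 17 of 39 replication genes, 24 of 47 mitosis genes and 6 of 17 Rb, E2F and DREAM regulators were called positive and 1 regulator negative. Espl1 among the mitosis genes was at 3.12 ± 0.39 (adjusted p = 0.000186), and Pole among the replication genes at 2.32 ± 0.30 (adjusted p = 0.000198).

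Promoter motifs were set beside these calls as a description, and a difference by motif was not tested. Of 18 mitotic members with a CHR motif in the window, 11 were called lower in Sec-Cre against WT ileal ISCs, and of 5 without, 1. Of all genes, 6.96% were called lower there. In duodenal against WT ileal ISCs the counts were 7 of 18 and 4 of 5, where 8.84% of all genes were called lower. Among S-phase members with an E2F motif, 1 of 6 was called lower in Sec-Cre against WT ISCs and 0 of 6 in duodenal against WT ISCs, against 2 of 10 and 3 of 10 without. The windows of Top2a and Plk1 printed above have the CHR motif, and that of Cenpe has none, and all 3 genes were lower in Sec-Cre against WT ISCs.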

How the data were processed

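The authors deposited raw read counts per gene (the STAR count layout) for 13 bulk RNA-seq libraries, 6 of organoids and 7 of isolated ISCs. Poly(A) RNA was used, per the labels' protocols, and the submitters' processing notes name STAR, with its version not given in the sources used here, DESeq2 1.22.2 and mm10. The unstranded count column was used throughout, and the summary lines for reads outside genes (unmapped, multimapping, no feature, ambiguous) stayed out of library sizes. The counter's treatment of reads shared between genes is not given in the sources used here.

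From these counts, edgeR 4.0.16 (R 4.3.3) gave TMM-scaled CPM and quasi-likelihood tests, after filterByExpr with a minimum count of 10, with Benjamini-Hochberg adjustment over all tested genes, a threshold of 0.05 and a prior count of 0.125. The 3 organoid groups were fitted together (14208 genes, 3 residual degrees of freedom), the 3 ISC groups together (14577 genes, 4), and all 13 libraries for contrasts across settings (15208 genes, 7). Fitted biological coefficients of variation were 0.218, 0.403 and 0.341, so smaller fold changes were within reach in organoids. Depth was 11524335 to 45516228 counts. Groups came from the labels' titles and genotypes.

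The members and lists were chosen with earlier results of these data known. Values per library are given for the member with the highest CPM of each role, for up to 4 members of each phase with the smallest adjusted p among those called, and for members called against the majority of their phase. Hmmr, Aurka, Ccnb2, Cdca8, Cdc20, Cdk1, Gins2, Mki67 in organoids and in duodenal against WT ISCs, Top2a in organoids and some interaction arms were added after their values were seen. Transcript lengths are from GENCODE vM21, which matched 22750 of 24054 symbols, with a principal transcript for 19681. Reads are called uncertain where over 20% of a member's 31-base words occur in transcripts of other genes, which held for 8 members. Chi-square statistics between replicates of a group were 18.9 to 1655 per degree of freedom, above counting noise, so no library was treated as a copy of another, which does not show that they are separate animals. Alternatives were RLE scaling, DESeq2 1.42.0, limma 3.58.1 voom with library weights, no filter, other sample sets, a replicate block, left-out genes and libraries, the second-strand column for duodenal libraries and removal of a length trend. Tests were run on simulated counts with 200 changed genes first.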

Additional observations from a re-analysis of the deposited data

Results flagged for a closer look

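The change with secretory Apc loss differed between organoids and ileal ISCs for 23 members, by the test of the difference itself in edgeR's quasi-likelihood fit of all 13 libraries. Each value is the log2 fold change of Sec-Cre over WT in organoids minus that in ileal ISCs, so a positive value means a higher fold change in organoids. In all 23 members it was positive. They were 48.9% of the members, where 13.4% of all genes were called positive and 26.4% in either direction.

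Among helicase genes the difference was 2.30 for Mcm2, 1.92 for Mcm3, 2.00 for Mcm4, 1.62 for Mcm7 and 1.34 for Gins1. Reads of Mcm7 are uncertain, since 33.4% of its 31-base words are shared with other transcripts. It was 1.39 for Pcna, 2.24 for Chaf1a, 1.35 for Chaf1b, 1.74 for Rrm1 and 1.58 for Ccne1. Mcm2, Mcm7, Gins1, Chaf1b, Rrm1 and Ccne1 were called in this difference and not in ISCs alone, where Mcm2 stood at -1.71 ± 0.60 and Gins1 at -0.53 ± 0.37.

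Among spindle genes it was 2.20 for Kif11, 2.56 for Kif20a, 1.39 for Kif23, 2.24 for Tpx2, 1.52 for Prc1 and 2.62 for Anln. Kinases and kinetochore genes had 1.48 for Plk1, 1.95 for Bub1, 2.05 for Bub1b, 1.19 for Cenpe and 1.47 for Cenpf. Top2a had 2.23 and Mki67 2.55. Kif20a stood at 0.50 ± 0.12 in organoids, where it passed the test, and at -2.05 ± 0.64 in ISCs, where it did not (adjusted p = 0.0609 by edgeR).

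Both Sec-Cre ISC libraries that enter every one of these values had more unmapped reads (57.0% and 35.8%) than the other 11 libraries, and the part of library quality was not tested. Transcript length moved with this difference over all genes too, and its part was not tested. Without Sec-Cre ISC replicate 1 the count of called members hardly changed, and without replicate 2 it rose. The share of all genes called rose in both fits, each of which leaves 1 Sec-Cre ISC library.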

How the results depend on the processing

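For the 81 calls of members in single comparisons, alternative settings gave 1444 values, of which 1076 passed the threshold and 368 did not, 1 of these with a changed sign. That was Ube2c in duodenal ISC-Cre against ileal Sec-Cre ISCs, at 0.17 with the length trend removed (adjusted p = 0.689), against -0.87 without; the cause was not tested. The length setting, plain totals and a crossed block were chosen after seeing the data. Leaving out 1 library at a time, where the lone sample left is assumed to vary like the other groups, gave 0 to 13 calls in Sec-Cre and 1 to 11 in ISC-Cre against WT organoids, 0 to 31 in Sec-Cre against WT ileal ISCs, 1 to 28 in duodenal against WT ISCs, 5 to 20 in duodenal against Sec-Cre ISCs and 10 to 35 for the difference between settings. In Sec-Cre against WT organoids, DESeq2 gave 11 (38.3% of all genes called) and no filter 9 (27.2%), against 5 (33.0%). All 13 libraries together gave 0 (16.3%) and the length trend removed 10 (34.8%). In ISC-Cre against WT organoids, DESeq2 gave 10 (42.2%), these groups alone 2 (32.2%) and all libraries 0 (19.7%), against 5 (37.8%). In Sec-Cre against WT ileal ISCs, all libraries together gave 29 (28.2%), against 18 (16.6%), and these groups alone 12 (10.3%). In duodenal against WT ISCs, these groups alone gave 28 (28.7% of all genes called), all libraries 28 (29.1%) and limma voom 34 (50.6%), against 17 (19.1%). In duodenal against Sec-Cre ISCs, these groups alone gave 6 (36.3%), limma voom 7 (35.0%) and the replicate block 6 (30.9%), against 13 (40.8%). With no filter, the median of all genes moved to 0.11 in Sec-Cre over WT organoids, 0.24 in duodenal over WT ISCs and 0.32 in duodenal over Sec-Cre ISCs.

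The mean log2 level of all members was 6.88 in Sec-Cre organoids, 6.77 in ISC-Cre organoids, 5.77 in duodenal, 4.29 in Sec-Cre and 6.55 in WT ISCs with plain totals in place of TMM, against 6.70, 6.53, 5.58, 5.13 and 6.48. With Paneth markers, Rn45s and Lars2 left out it was 5.70 in duodenal and 6.59 in WT ISCs. A block for the replicate number gave 6 and 4 calls in Sec-Cre and ISC-Cre against WT organoids (28.5% and 33.2% of all genes called) and 0 between Apc-null organoids (0.0282%). It gave 21, 12 and 6 in the ISC contrasts (16.9%, 11.5% and 30.9%) and 30 for the difference between settings (30.5%). Same-numbered samples correlated at -0.145 to 0.083 in their deviations. Between groups of 2 libraries both pairs give the same value, so this check cannot exclude a shared source or batch. With the WT organoid numbers crossed, 5 members were called in ISC-Cre against WT organoids, where 36.2% of all genes were. In ileal ISCs, 2 libraries a group and the spread between Sec-Cre replicates limit what can be called.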

Other observations

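The 6 helicase subunits Mcm2 to Mcm7 assemble in equal numbers, and their RNA levels per kb of transcript were set side by side in each library. The ratio of the highest to the lowest subunit was 1.72 and 1.82 in Sec-Cre organoids, 1.72 and 1.72 in ISC-Cre organoids and 2.38 and 2.21 in WT organoids. Among ISCs the ratio reached 1.92, 1.94 and 2.11 in duodenal ISC-Cre, 3.74 and 2.76 in ileal Sec-Cre and 2.48 and 2.26 in ileal WT libraries. All 4 Apc-null organoid libraries thus lay below both WT organoid libraries, and both Sec-Cre ISC libraries lay above both WT ISC libraries. Mcm4 was the lowest subunit in both WT organoid and both WT ISC libraries, and Mcm5 in the 3 duodenal libraries. Mcm7 was the highest in Sec-Cre organoid replicate 1, both ISC-Cre organoid libraries and ileal Sec-Cre ISC replicate 1. Of its 31-base words, 33.4% are shared with other transcripts, so its reads are uncertain. The ratio of 3.74 rests on Mcm2, with 73 reads, as the lowest, in a library with 57.0% unmapped reads. The ratio was chosen after its values were seen and was not tested.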
